A study of Homo sapiens with 16 samples.

Results

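The genes described here are the numbered zinc finger genes of human chromosome 19: protein-coding genes on that chromosome whose symbol is ZNF followed by digits alone. They were kept where their mean over all 16 libraries was at least 1 CPM (the count of a gene relative to its library total, with totals scaled by the trimmed mean of M-values). Of 60612 genes in the count table, 241 had this name, place and type, and 211 of them reached the mean. The choice used no difference between groups. ZNF77, at a mean of 1.22 CPM, lay just inside the limit, and ZNF98, at 0.928 CPM, lay just outside it. A limit of 0.5 CPM would have kept 218 genes, and one of 2 CPM would have kept 192. All 211 genes also passed the filter on low counts, so every one of them was tested in every comparison.

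RNA was measured in NCI-H1944, an established human lung adenocarcinoma line. The line had been given guide RNAs against STING1 (STING), against MAVS (MAVS), against both (DKO), or a control guide (SCR, labelled as wild type). Cells of each genotype received the MPS1 inhibitor BAY-1217389 at 100 nM for 48 h, followed by washout and a further 24 h of culture (MPS1i), or the vehicle DMSO. There were 2 libraries of poly(A) RNA in each of the 8 groups. MPS1 (TTK) is a kinase of the spindle checkpoint, and its inhibition makes cells divide with missegregated chromosomes. STING and MAVS are the adaptors of cytosolic DNA and RNA sensing, and both lead to interferon production. The labels do not say whether libraries of a group came from separate cultures, or whether a line is a clone or a pool, so the p-values below measure only the spread between these libraries.

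Most of these genes encode KRAB zinc finger proteins. A tandem array of C2H2 fingers reads a DNA sequence, often within a transposable element, and the KRAB domain recruits TRIM28 (KAP1). TRIM28 in turn brings the histone methyltransferase SETDB1 and HP1 proteins, which place H3K9me3 and silence the site. The family grew by repeated local duplication, and chromosome 19 carries several large clusters of it.

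Across the 211 genes, the longest open reading frame held a median of 12 C2H2 fingers, with 36 in ZNF208 and 0 in ZNF738. A KRAB pattern was found in 173. Where neighbours among the 241 named genes lay less than 1 Mb apart they were counted as 1 cluster, which gave 16 clusters. The 211 genes lie in 15 of these, and 8 clusters hold at least 5 of them and 200 in all. Numbered along the chromosome, the largest was cluster 16, of 52 genes, which ran from ZNF628 to ZNF446 (chr19:55476617-58481230). Cluster 15, of 37, ran from ZNF175 to ZNF331 (chr19:51571283-53580269), and cluster 5, of 30, from ZNF101 to ZNF254 (chr19:19668796-24129968). Clusters 12, 9, 3 and 2, of 24 (ZNF575 to ZNF296, chr19:43525497-45076587), 23 (ZNF565 to ZNF573, chr19:36182276-37817300), 17 (ZNF653 to ZNF791, chr19:11483427-12640098) and 12 genes (ZNF557 to ZNF562, chr19:7069703-9675100) were the next in size. Coordinates are on GRCh38.

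Promoter sequences from RefSeq (GRCh38.p14), covering 250 bases before to 50 after the gene start, were matched for 187 of the 211 genes. Where a gene had several windows, only that with the lowest coordinate was used, here and for all genes. On the minus strand that is the most downstream start. Shown here are those of ZNF382 and ZNF568, which lie in the ZNF565 to ZNF573 cluster and moved in opposite directions under MPS1i in STING, MAVS and SCR, of ZNF222, whose change under MPS1i differed between genotypes, and of ZNF208, whose level differed between the lines. Capitals mark the CpG dinucleotides, of which they hold 27, 25, 14 and 10. The windows are chr19:36605063-36605362 (plus strand) for ZNF382, chr19:36916082-36916381 (plus strand) for ZNF568, chr19:44025129-44025428 (plus strand) for ZNF222 and chr19:22010894-22011193 (minus strand) for ZNF208.
ZNF382: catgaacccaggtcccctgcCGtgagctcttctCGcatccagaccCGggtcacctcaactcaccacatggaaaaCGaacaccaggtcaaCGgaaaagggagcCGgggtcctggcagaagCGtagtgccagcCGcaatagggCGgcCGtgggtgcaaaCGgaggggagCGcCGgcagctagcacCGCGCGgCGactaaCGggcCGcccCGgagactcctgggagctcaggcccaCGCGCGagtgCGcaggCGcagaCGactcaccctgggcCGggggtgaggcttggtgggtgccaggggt
ZNF568: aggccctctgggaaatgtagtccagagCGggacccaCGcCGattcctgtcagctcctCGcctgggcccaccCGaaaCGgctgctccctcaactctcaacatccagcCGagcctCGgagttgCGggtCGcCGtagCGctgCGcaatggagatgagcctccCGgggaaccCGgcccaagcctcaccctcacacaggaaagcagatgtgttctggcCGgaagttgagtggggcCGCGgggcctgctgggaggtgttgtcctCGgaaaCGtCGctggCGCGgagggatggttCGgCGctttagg
ZNF222: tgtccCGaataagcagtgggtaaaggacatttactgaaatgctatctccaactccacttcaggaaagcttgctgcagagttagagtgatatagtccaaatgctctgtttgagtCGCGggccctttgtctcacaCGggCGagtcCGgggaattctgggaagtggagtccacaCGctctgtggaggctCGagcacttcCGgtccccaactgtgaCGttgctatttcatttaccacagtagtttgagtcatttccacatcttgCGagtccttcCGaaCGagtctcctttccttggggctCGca
ZNF208: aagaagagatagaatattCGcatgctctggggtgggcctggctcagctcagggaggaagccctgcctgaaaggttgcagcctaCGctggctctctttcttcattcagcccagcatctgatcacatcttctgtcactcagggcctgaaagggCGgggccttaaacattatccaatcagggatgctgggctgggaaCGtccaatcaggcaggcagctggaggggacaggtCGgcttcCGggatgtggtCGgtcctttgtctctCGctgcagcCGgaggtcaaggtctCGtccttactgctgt

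The 187 windows held a median of 20 CpG dinucleotides, against 13 over the 27326 windows of all genes and 24 over the 195 windows of numbered ZNF genes on other chromosomes. Within the family the ZNF101 to ZNF254 cluster was the poorest of those with at least 5 windows, with a median of 10 over 26 windows. The ETS core CCGGAAG, searched on both strands, was present in 83 of the 187 windows (44.4%), against 10.6% of all windows, and it occurs in the ZNF568, ZNF222 and ZNF208 windows printed above. Its share in numbered ZNF genes of other chromosomes was not measured. Some windows that were not used, of ZNF432 and ZNF160, hold it where the window used does not. The NRF1 motif, GCGCA and GCGC with any 1 base between them, was in 11.8% of the family's windows and 6.05% of all windows. The interferon-stimulated response element core, GAAA and GAAA with any 2 bases between them, was in 2 windows, those of ZNF160 and ZNF583 (1.07%), against 3.65% of all windows. The window of ZNF160 that was not used lacks this core. The AP-1 motif TGANTCA was in 6.95% against 7.91%, the E2F motif TTTCCCGC in 1.07% against 1.62%, and the NF-kB motif, GGGA and TTTCC with any 1 base between them, in 0 against 0.571%. These are matches of letters and not measured binding.

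As a group the genes were expressed at low levels. Their mean level had a median of 9.95 CPM, and together they took 0.377% to 0.404% of the counts of a library. Per kilobase of annotated exon, ZNF460 and ZNF146 stood highest, at 68.9 and 60.8 CPM per kb. ZNF146 (OZF) is a protein made almost only of fingers, without a KRAB domain. ZNF805, ZNF260 and ZNF480 followed at 22.2, 15.8 and 15.7 CPM per kb. At the low end by mean level in CPM were ZNF77, ZNF382 and ZNF433. At 18 of the 211 genes more than 20% of the 50-base words of the transcript also occur in another gene, and how reads that fit several places were counted is not given in the sources used here. The pair ZNF320 and ZNF468 shares 99.5% and 99.1% of its words with the other gene, and ZNF20, ZNF724, ZNF814, ZNF587, ZNF417 and ZNF324 are also among the 18, so their values are uncertain. The strand setting of the counting is not given either, so reads of genes that overlap on opposite strands, such as ZNF382 and ZNF529, may not be separated.

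Library totals were 19893784 to 49769938 counts. In MPS1i-treated cells STING1 stood at 5.94 CPM in STING, 18.6 in MAVS, 4.12 in DKO and 28.99 in SCR. In DMSO it stood at 3.74 CPM in STING, 10.4 in MAVS, 4.86 in DKO and 8.27 in SCR. MAVS RNA was not lower in the lines labelled for it (MAVS against SCR in DMSO, log2 fold change 0.07, adjusted p = 0.436; DKO against SCR, 0.20, adjusted p = 0.000894), and RNA level does not test a guide-made mutation. IFIT1, an interferon-stimulated gene, changed under MPS1i by a log2 fold change of 5.62 in STING, 3.01 in MAVS and 4.57 in SCR, and by 0.12 in DKO (adjusted p = 0.728). In MPS1i it stood at 693 CPM in STING, 981 in MAVS, 7.06 in DKO and 2128 in SCR. In DMSO these levels were 14.2, 122, 6.37 and 89.4 CPM. Of other interferon-stimulated genes, MX1 and OAS1 rose in DKO (0.72 and 0.63; edgeR adjusted p = 0.000108 and 1.19e-08). IFIT2, IFIT3 and ISG15 were not called there (0.31, 0.12 and 0.83; adjusted p = 0.288, 0.668 and 0.0519). Keratin genes, CDH1 and MUC1 were expressed, and changed under MPS1i in different directions (log2 fold changes, each at edgeR adjusted p under 0.05). KRT8 rose in STING (0.40), MAVS (0.26) and SCR (0.50), and KRT18 in STING and SCR (0.31 in each). KRT7 rose in DKO (0.19) and MUC1 in SCR (0.29). CDH1 fell in STING (-0.20), MAVS (-0.26), DKO (-0.46) and SCR (-0.15). EPCAM was low, averaging 2.19 to 2.96 CPM in the MPS1i groups, against 3.19 to 4.91 CPM in the DMSO groups. It fell in MAVS (-0.58; edgeR adjusted p = 0.0175) and SCR (-0.72; adjusted p = 0.00117). In STING and DKO its fall was not called (-0.49 and -0.54; adjusted p = 0.0656 and 0.076). NKX2-1, SFTPB and NAPSA stayed at or under 0.378 CPM in every group. Among markers of immune, fibroblast and endothelial cells, PTPRC, CD3E and COL1A2 averaged at most 0.110 CPM in every group. Others were detected. COL1A1 averaged 5.07 to 7.35 CPM in the MPS1i groups, against 3.55 to 4.73 CPM in the DMSO groups, and rose in STING (0.52; adjusted p = 0.0169) and SCR (0.80; adjusted p = 2.32e-05). PECAM1 averaged 1.56 to 2.43 CPM in MPS1i, against 1.15 to 2.08 CPM in DMSO, and rose in SCR (0.72; adjusted p = 0.0191). CD14, at 0.5003 to 0.924 CPM in MPS1i and 0.236 to 0.680 CPM in DMSO, rose in STING (1.90, edgeR adjusted p = 0.00667). LYZ averaged 0.356 to 0.574 CPM in MPS1i and 0.110 to 0.236 CPM in DMSO. It rose in STING (2.04, adjusted p = 0.0291), MAVS (1.83, adjusted p = 0.0267) and SCR (1.48, adjusted p = 0.0214). COL3A1, PDGFRB, VWF and CDH5 averaged at most 0.331 CPM in every group. The part of such cells in the results was not tested.

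A gene is called changed where the adjusted p of the edgeR quasi-likelihood test, over 17950 genes, is under 0.05. Under MPS1i, 15 of the 211 genes rose and 24 fell in STING (18.5%, where 29.4% of all tested genes were called). In MAVS 30 rose and 17 fell (22.3%, against 33.4% of all genes). In DKO 12 rose and 11 fell (10.9%, against 14.8%, of which 6.53% higher and 8.22% lower), and in SCR 58 rose and 47 fell (49.8%, against 50%). In SCR the share called was close to that of all tested genes, and in the other genotypes it was below it. Of the 12336 protein-coding genes of at least 1 CPM, 35.9% were called in STING, 41.9% in MAVS, 19% in DKO and 59.9% in SCR, more than in the family in each genotype. The median log2 fold change over the family was -0.08 in STING, 0.03 in MAVS, 0.02 in DKO and 0.03 in SCR, against 0.00, 0.02, 0.00 and 0.03 over all tested genes. Other protein-coding genes of chromosome 19 (648 genes) had medians of 0.15 in STING, 0.03 in MAVS, 0.06 in DKO and 0.10 in SCR. The 208 numbered ZNF genes of other chromosomes had medians of 0.00, 0.06, 0.04 and 0.04 in the same order, and 22.6%, 27.4%, 9.13% and 45.2% of them were called. In bulk RNA, fewer cells with a transcript and less transcript per cell cannot be told apart.

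**Figure D1:**
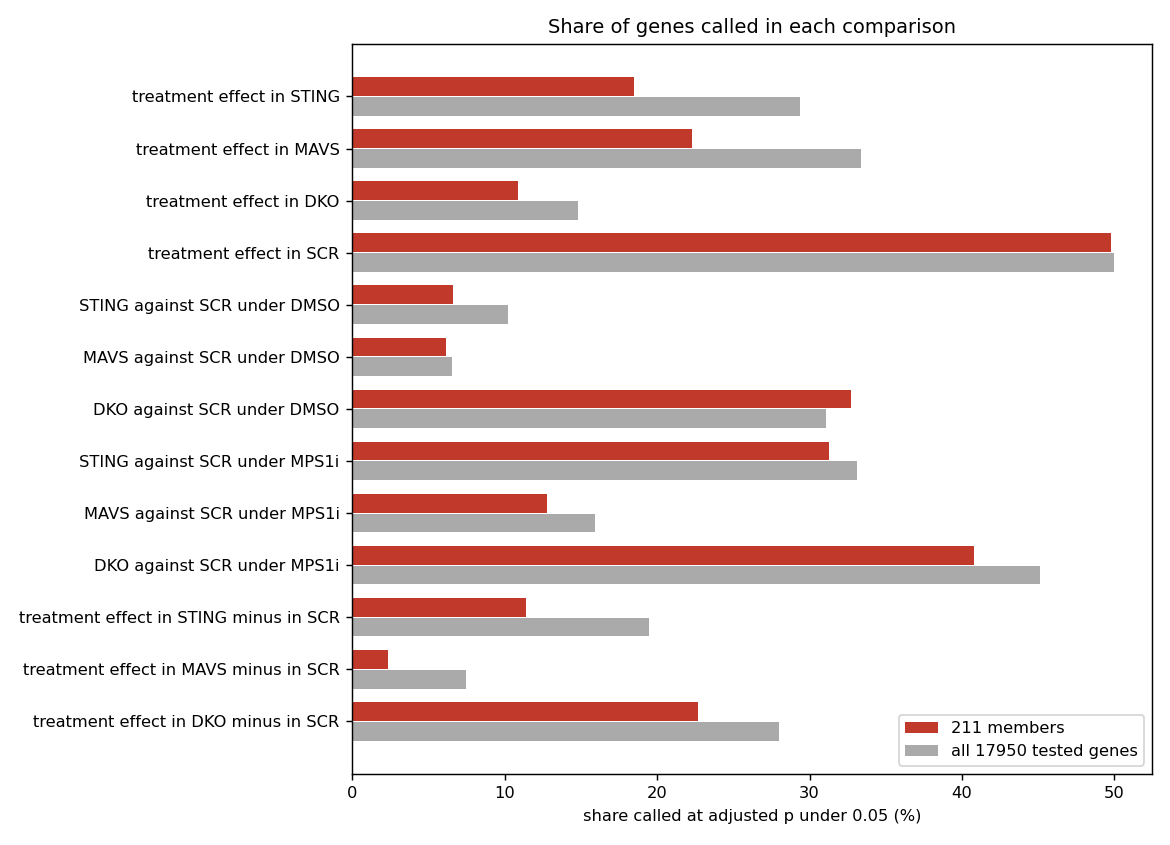
Percent of genes called in each of the 13 comparisons, for the 211 chromosome 19 zinc finger genes and for all 17950 tested genes. The share of the family exceeds that of all genes in 1 comparison, DKO against SCR in DMSO (32.7% against 31.1%), where 40.2% of protein-coding genes of at least 1 CPM were called.

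These counts rest on 2 libraries a group and moved when 1 was left out. Calls that held in such fits were not counted over all tested genes. The losses below therefore cannot be read as a trait of this family. In STING the 39 calls became 16 without MPS1i replicate 2, 20 without DMSO replicate 1 and 22 without DMSO replicate 2. In MAVS the 47 became 26 without MPS1i replicate 1, 30 without MPS1i replicate 2 and 31 without DMSO replicate 2. In DKO the 23 became 5 without MPS1i replicate 1, 10 without MPS1i replicate 2 and 12 without DMSO replicate 2. In SCR the 105 became 76 to 79, while 41.2% to 41.7% of all tested genes were called. Calls held in each of these fits for 8 of 39 genes in STING, 10 of 47 in MAVS, 1 of 23 in DKO and 53 of 105 in SCR, and the genes described first below are of that kind.

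In SCR cells the largest rise was that of ZNF382, a KRAB protein described elsewhere as a tumour suppressor that represses NF-kB and AP-1 signalling. It stood at 2.22 and 2.14 CPM in MPS1i, against 0.588 and 0.491 CPM in DMSO (log2 fold change 1.99 ± 0.27, SE; adjusted p = 9.07e-07). Both treated libraries lay well above both vehicle libraries, although the level stayed among the lowest of the family. ZNF296, which in mouse works with the factor Klf4, stood at 2.78 and 2.92 CPM in MPS1i, against 0.953 and 1.27 CPM in DMSO (1.37 ± 0.22; adjusted p = 1e-05). ZNF222 stood at 11.9 and 13.3 CPM in MPS1i, against 7.04 and 6.94 CPM in DMSO (0.85 ± 0.14; adjusted p = 1.02e-05). The groups did not overlap for either gene. ZNF224, a repressor of aldolase A and a cofactor of WT1, had 39.3 and 38.5 CPM in MPS1i, against 24.6 and 24.9 CPM in DMSO (0.65 ± 0.07; adjusted p = 3.24e-08). It is a near neighbour of ZNF222 and moved the same way at several times its level. ZNF628 (0.83 ± 0.15), ZNF444 (0.79 ± 0.15) and ZNF461 (0.76 ± 0.12) also rose in SCR.

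Among the falls in SCR, that of ZNF568 had the smallest adjusted p. In mouse its counterpart Zfp568 represses a placental transcript of Igf2. ZNF568 had 15.8 and 17.3 CPM in MPS1i, against 29.6 and 30.0 CPM in DMSO (-0.85 ± 0.07; adjusted p = 1.67e-10), with a wide gap between the groups. ZNF573 had 2.50 and 2.89 CPM in MPS1i, against 4.99 and 5.20 CPM in DMSO (-0.91 ± 0.15; adjusted p = 2.08e-05). ZNF285 had 3.57 and 2.53 CPM in MPS1i, against 5.82 and 5.12 CPM in DMSO (-0.86 ± 0.17; adjusted p = 0.000187). For both, treated and vehicle libraries were apart. ZNF208, whose locus has been linked to telomere length, fell too (-0.76 ± 0.17; adjusted p = 0.000428), as did ZNF793 (-0.73 ± 0.11) and ZNF528 (-0.61 ± 0.07). The most abundant gene per kilobase, ZNF460, had 221 and 230 CPM in MPS1i, against 292 and 307 CPM in DMSO (-0.41 ± 0.05; adjusted p = 5e-08). The 2 largest falls by size were of genes near the limit of expression and depended on single libraries: ZNF135 (-1.004 ± 0.28) was no longer called without SCR DMSO replicate 2 (adjusted p = 0.0981), and ZNF676 (-0.95 ± 0.33) was not called without SCR MPS1i replicate 1 (adjusted p = 0.237) or without SCR DMSO replicate 2 (adjusted p = 0.176).

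**Figure D2:**
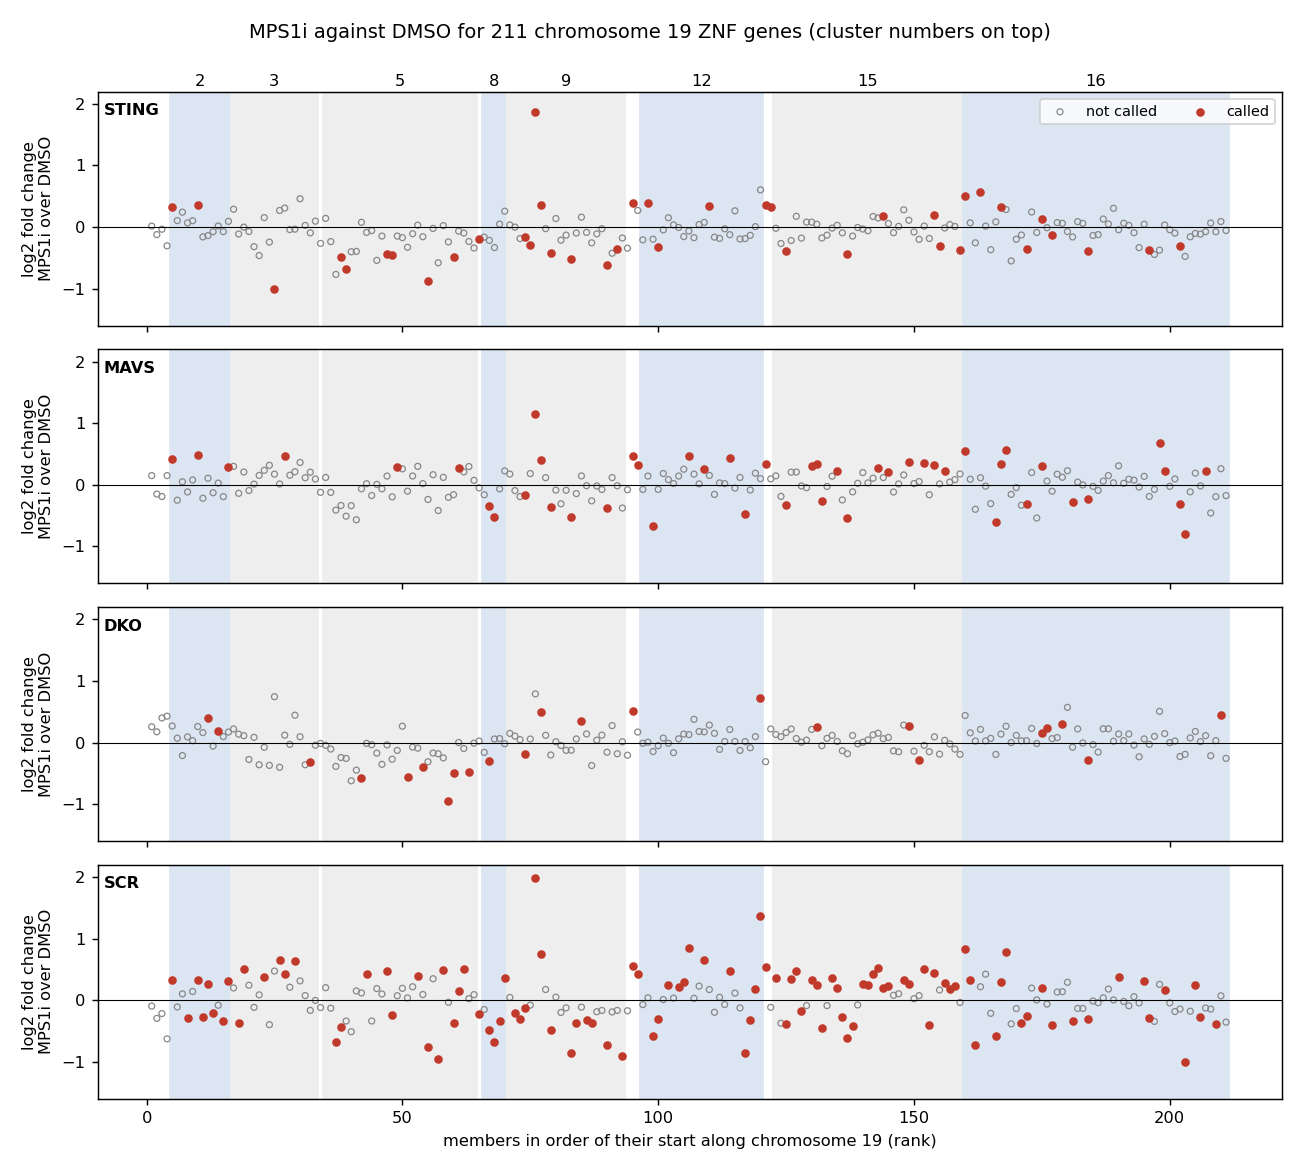
Log2 fold change of MPS1i over DMSO for each of the 211 genes along chromosome 19, in panels for STING, MAVS, DKO and SCR, with called genes marked. In SCR, 20 of 37 genes of cluster 15 (ZNF175 to ZNF331) were called higher, and 10 of 23 genes of cluster 9 (ZNF565 to ZNF573) were called lower.

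Counts by cluster differed in SCR cells. In the ZNF175 to ZNF331 cluster, 20 of 37 genes rose and 7 fell (median log2 fold change 0.19), where 26% of all genes were called higher and 24% lower. The 20 rises became 15 or 16 when any 1 of the SCR libraries was left out, and the median stayed between 0.15 and 0.20. In the ZNF565 to ZNF573 cluster, 2 of 23 rose and 10 fell (median -0.19), and the falls numbered 6 to 11 in the fits with 1 library left out, 6 being without SCR MPS1i replicate 1. In the ZNF653 to ZNF791 cluster the median was 0.21, with 5 genes that rose and 1 that fell of 17. The rises there became 2 without SCR DMSO replicate 1. Cluster 8, ZNF302 to ZNF792, had 1 gene that rose and 3 that fell of 5 (median -0.33), and was not followed with a library left out. The remaining clusters of at least 5 genes were mixed. In ZNF575 to ZNF296, 8 rose and 4 fell, and the rises became 4 without SCR DMSO replicate 2 and at most 5 without any other SCR library. In ZNF628 to ZNF446, 9 rose and 11 fell, and the rises became 5 without SCR MPS1i replicate 1. In ZNF101 to ZNF254, 6 rose and 6 fell, and the rises became 1 without SCR DMSO replicate 1, and the falls 2 or 3 whichever library was left out. Neighbouring genes can share sequence and reads, so they are not independent of each other. Other protein-coding genes of at least 1 CPM, outside the zinc finger families, lie in some of these spans. In ZNF175 to ZNF331, 4 of 5 rose and 0 fell (median 0.61). In ZNF575 to ZNF296, 9 of 18 rose and 2 fell (0.19), and in ZNF628 to ZNF446, 4 of 9 and 1 (0.25). In ZNF653 to ZNF791, 0 of 5 rose or fell (-0.16), and in cluster 2, 5 of 25 rose and 3 fell (0.04). These genes were not followed with a library left out.

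In the other genotypes fewer of all tested genes were called, and the counts in these clusters were lower too. In STING 15.5% of all genes were called higher and 13.9% lower, in MAVS 17.1% and 16.3%, and in DKO 6.53% and 8.22%. In the ZNF175 to ZNF331 cluster 2 genes rose and 4 fell in STING, 9 rose and 3 fell in MAVS, and 2 rose and 1 fell in DKO, with medians of -0.02, 0.08 and 0.04. With 1 library left out, the rises numbered 0 or 1 in STING whichever library it was, and the falls 1 to 4 (1 without STING DMSO replicate 1). In MAVS the 9 rises became 3 without MAVS DMSO replicate 1 and the 3 falls became 1 without MAVS MPS1i replicate 1. In DKO no rise was called without DKO MPS1i replicate 2, and no fall without DKO MPS1i replicate 1. In the ZNF565 to ZNF573 cluster, 2 rose and 6 fell in STING, 2 rose and 4 fell in MAVS, and 2 rose and 1 fell in DKO, with medians of -0.13, -0.09 and 0.05. The 6 falls in STING became 3 without STING MPS1i replicate 2, and the 2 rises became 1 whichever library was left out. The 4 falls in MAVS became 2 without MAVS MPS1i replicate 1 and the rises 1 without MAVS MPS1i replicate 2, while without DKO MPS1i replicate 1 the DKO counts were 1 and 0. The cluster ZNF101 to ZNF254 had 0 rises and 6 falls in both STING (median -0.24) and DKO (median -0.21), with the shares of all genes as given above. In MAVS it had 2 rises and 0 falls (median -0.03), and with 1 library left out 0 or 1 rises, 0 to 2 falls and a median between -0.13 and 0.03. Its 6 falls became 1 without STING MPS1i replicate 2, and between 0 and 3 when a DKO library was left out, 0 being without DKO MPS1i replicate 1, while the medians stayed between -0.26 and -0.19 in STING and between -0.24 and -0.20 in DKO.

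**Figure D3:**
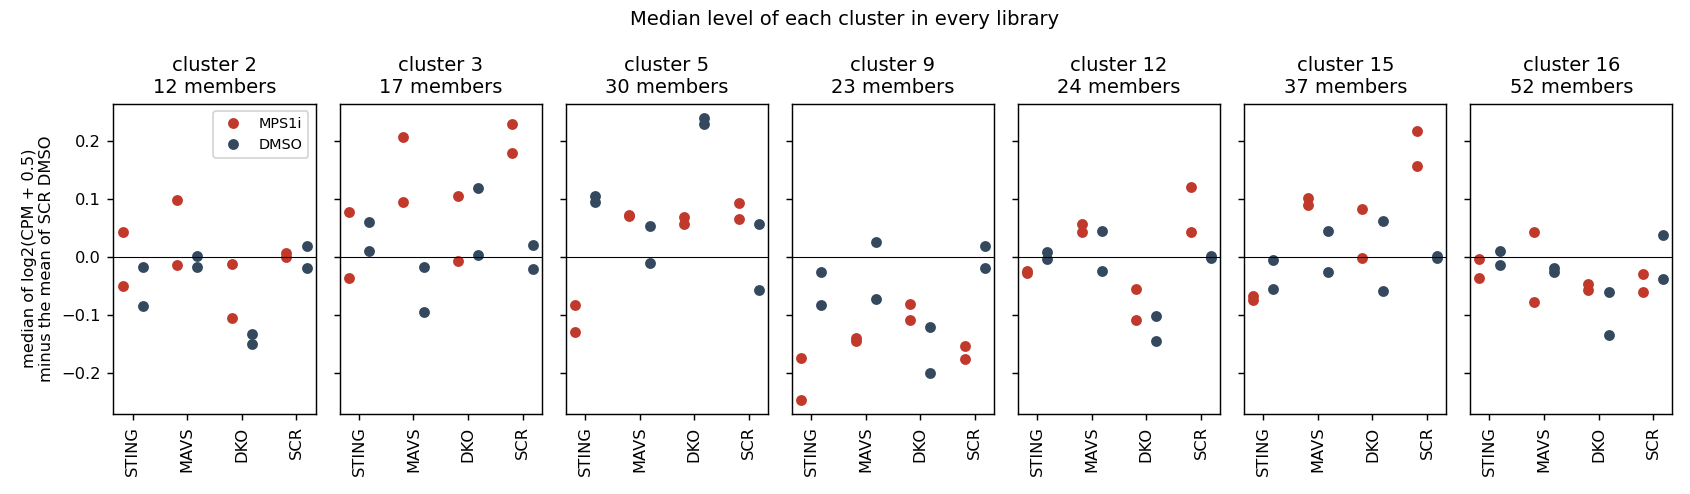
Median over the genes of a cluster of log2(CPM + 0.5), minus the mean of the SCR DMSO libraries, for each of the 16 libraries. The SCR MPS1i libraries are highest in the ZNF175 to ZNF331 cluster (0.16 and 0.22), and the DKO DMSO libraries are highest in ZNF101 to ZNF254 (0.23 and 0.24).

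In STING cells ZNF382 again had the largest rise, with 1.64 and 1.49 CPM in MPS1i, against 0.452 and 0.389 CPM in DMSO (1.88 ± 0.34; adjusted p = 0.000118). ZNF208 fell to 4.31 and 3.08 CPM in MPS1i, against 6.57 and 7.01 CPM in DMSO (-0.88 ± 0.16; adjusted p = 0.000165). ZNF568 had 18.8 and 18.9 CPM in MPS1i, against 27.1 and 27.1 CPM in DMSO (-0.53 ± 0.08; adjusted p = 6.9e-06). None of these 3 had overlapping groups, and each call held with any 1 library left out. So did the falls of ZNF793 (-0.61 ± 0.11), ZNF528 (-0.43 ± 0.08) and ZNF772 (-0.39 ± 0.08). Other called genes depended on 1 library. The rise of ZNF865 (0.56 ± 0.14) was not called without STING DMSO replicate 1 (adjusted p = 0.105). The call of ZNF20, which had 1.22 and 1.25 CPM in MPS1i and 2.09 and 2.92 CPM in DMSO (-1.01 ± 0.29), was lost without DMSO replicate 2 (adjusted p = 0.132), MPS1i replicate 1 (0.0538) or MPS1i replicate 2 (0.0595). ZNF576 (0.38 ± 0.14; adjusted p = 0.0421) missed the threshold without any 1 of the 4 libraries (adjusted p of 0.112 to 0.197).

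In MAVS cells ZNF382 had 1.64 and 1.81 CPM in MPS1i, against 0.829 and 0.710 CPM in DMSO (1.15 ± 0.29; adjusted p = 0.00293). ZNF568 had 19.1 and 17.9 CPM in MPS1i, against 26.3 and 27.1 CPM in DMSO (-0.53 ± 0.07; adjusted p = 2.89e-06). ZNF528 had 23.8 and 22.0 CPM in MPS1i, against 31.4 and 35.4 CPM in DMSO (-0.54 ± 0.07; adjusted p = 2.25e-06). Treated and vehicle libraries were apart for each. ZNF428 (-0.66 ± 0.10) and ZNF581 (-0.61 ± 0.13) fell in MAVS and in SCR (both -0.58), and their values in STING were -0.20 (adjusted p = 0.164) and 0.08 (adjusted p = 0.688). ZNF574 (0.47 ± 0.11), ZNF841 (0.33 ± 0.07) and ZNF264 (0.30 ± 0.05) rose. The rises of ZNF444 (0.57 ± 0.16), ZNF628 (0.55 ± 0.16) and ZNF699 (0.48 ± 0.11) depended on single libraries: without MAVS DMSO replicate 2 the adjusted p was 0.105 for ZNF444 and 0.111 for ZNF628. Without MPS1i replicate 1 it was 0.109 for ZNF444, without MPS1i replicate 2 it was 0.0802 for ZNF628, and without DMSO replicate 1 it was 0.0541 for ZNF699.

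In DKO cells the 1 call that held in all fits with a library left out was ZNF805. It had 58.9 and 58.4 CPM in MPS1i, against 50.3 and 49.5 CPM in DMSO (0.23 ± 0.05; adjusted p = 0.00269), a small rise with libraries of each group close together. ZNF382 had 1.37 and 1.94 CPM in MPS1i, against 0.727 and 1.11 CPM in DMSO (0.79 ± 0.28; adjusted p = 0.0577). ZNF568 had 20.2 and 20.4 CPM in MPS1i, against 22.3 and 21.9 CPM in DMSO (-0.12 ± 0.07; adjusted p = 0.305). Neither passed the test in DKO, although the libraries of ZNF382 and of ZNF568 did not overlap between treatments. Of the 12 called rises, the 5 largest were those of ZNF296, ZNF574, ZNF461, ZNF324 and ZNF266, none of them the call that held in all fits. The 5 largest falls, ZNF730, ZNF486, ZNF738, ZNF724 and ZNF681, all lie in the ZNF101 to ZNF254 cluster, and none was called without DKO MPS1i replicate 1 (adjusted p of 0.219, 0.246, 0.160, 0.211 and 0.122). ZNF738, with the smallest adjusted p of them, had 5.17 and 5.91 CPM in MPS1i, against 8.60 and 7.66 CPM in DMSO (-0.56 ± 0.15; adjusted p = 0.00899). ZNF730 (-0.95 ± 0.27) also lost its call without DMSO replicate 2 (adjusted p = 0.191), ZNF724 (-0.50 ± 0.14) without DMSO replicate 1 (0.0737), and ZNF486 (-0.57 ± 0.19) and ZNF681 (-0.48 ± 0.15) without any 1 of the 4 libraries.

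**Figure D4:**
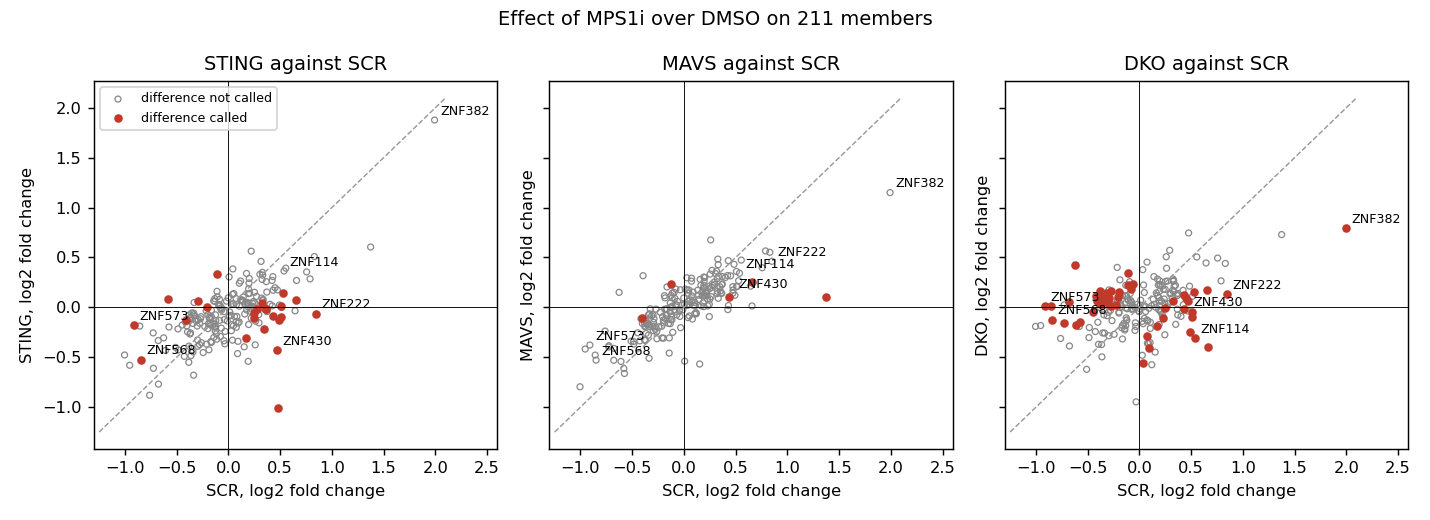
Log2 fold change of MPS1i over DMSO in STING, MAVS and DKO (vertical) against that in SCR (horizontal) for the 211 genes, with genes whose change differed from that in SCR filled. The filled points number 24 in STING, 5 in MAVS and 48 in DKO, and ZNF382 stands apart at the right in each panel (1.99 in SCR).

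The treatment effects of the 4 genotypes share no library, and can be set side by side gene by gene. Over the 211 genes (which share neighbours and sequence, so this is a description across genes), the effect in SCR had Pearson's r of 0.795 with that in MAVS, 0.648 with that in STING and 0.399 with that in DKO. Spearman's rho was 0.797, 0.597 and 0.344, against 0.745, 0.556 and 0.391 over all tested genes. Rises called in both SCR and MAVS numbered 27 and falls 16. For SCR and STING these were 11 and 16, and for SCR and DKO 7 and 4. Shared calls were not counted over all tested genes, so these counts do not show an agreement particular to the family. They also depend on how many genes were called in each genotype (29.4%, 33.4%, 14.8% and 50% of all tested genes in STING, MAVS, DKO and SCR).

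Called in the same direction in all 4 genotypes were ZNF461, ZNF574 and ZNF264, which rose, and ZNF260 and ZNF772, which fell, while 80 of the 211 were called in none. How many of all tested genes were called in all 4 genotypes, or in none, was not counted. In DKO 14.8% of all tested genes were called in either direction, which limits the number that can be called in all 4. ZNF264 had 85.1 and 84.7 CPM in MPS1i against 78.0 and 76.4 CPM in DMSO in STING, and 97.6 and 95.2 against 79.5 and 76.6 CPM in MAVS. It had 79.2 and 79.99 CPM in MPS1i against 72.0 and 70.6 CPM in DMSO in DKO, and 91.5 and 94.1 against 80.2 and 82.2 CPM in SCR. The step was small and the libraries were apart in every genotype. ZNF772 fell by 0.39 in STING, 0.23 in MAVS, 0.28 in DKO and 0.30 in SCR on the log2 scale, ZNF574 rose by 0.39, 0.47, 0.50 and 0.55, and ZNF461 by 0.35, 0.40, 0.49 and 0.76. ZNF260, a regulator in rat heart muscle cells, fell by 0.17, 0.16, 0.18 and 0.13. The calls of ZNF574 and ZNF264 in MAVS and SCR, of ZNF772 in STING and SCR and of ZNF461 in SCR held with any 1 library left out. Each of the other calls was lost without at least 1 library. The adjusted p reached 0.315 for ZNF461 in STING and 0.320 in MAVS, each without MPS1i replicate 2, and 0.229 in DKO without MPS1i replicate 1. ZNF574 reached 0.260 in STING without DMSO replicate 1 and 0.0636 in DKO without DMSO replicate 2. ZNF264 reached 0.291 in STING without DMSO replicate 2 and 0.161 in DKO without MPS1i replicate 2. For the falling pair, these values were 0.182 for ZNF772 in MAVS (without DMSO replicate 1) and 0.0981 in DKO (without MPS1i replicate 1), and for ZNF260 they were 0.136 in STING (without MPS1i replicate 2) and 0.131 in MAVS, 0.224 in DKO and 0.181 in SCR (each without DMSO replicate 2). A single gene, ZNF430, was called in opposite directions, higher in SCR (0.47 ± 0.13; adjusted p = 0.00419) and lower in STING (-0.43 ± 0.15; adjusted p = 0.0378). The SCR call was lost without SCR MPS1i replicate 2 (0.144) or DMSO replicate 1 (0.0709), and the STING call without STING MPS1i replicate 1 (0.0948), MPS1i replicate 2 (0.150) or DMSO replicate 2 (0.214).

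The difference between the treatment effects was tested for each line against SCR. It was called for 24 genes in STING (7 higher and 17 lower; 11.4%, against 19.5% of all genes, with 9.97% higher and 9.55% lower), 5 in MAVS (2 and 3; 2.37%, against 7.44%, with 2.92% higher and 4.52% lower) and 48 in DKO (28 and 20; 22.7%, against 28%). The STING count became 9 without SCR MPS1i replicate 2, 12 without STING MPS1i replicate 2, 14 without STING MPS1i replicate 1, and 15 without SCR DMSO replicate 1 or without STING DMSO replicate 2. The DKO count became 27 without SCR MPS1i replicate 2 and 28 without DKO MPS1i replicate 1. The MAVS count was 2 to 5 over the fits with 1 library left out. All 3 differences use the same SCR libraries.

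ZNF222 and ZNF224, which rose in SCR, were among the differences with the smallest adjusted p for STING. ZNF222 had 6.90 and 6.54 CPM in MPS1i against 6.82 and 7.25 CPM in DMSO in STING, while its SCR libraries were apart (difference of effects -0.91 ± 0.21; adjusted p = 0.0025). ZNF224 had 28.8 and 27.4 CPM in MPS1i against 27.1 and 26.1 CPM in DMSO in STING (difference -0.58 ± 0.11; adjusted p = 0.000287). In DKO it had 22.3 and 23.2 CPM in MPS1i against 19.3 and 21.0 CPM in DMSO (difference -0.48 ± 0.11; adjusted p = 0.0013). In MAVS the difference for ZNF224 was -0.40 ± 0.11 (adjusted p = 0.0189), and it was lost without any 1 of SCR MPS1i replicate 1, MAVS MPS1i replicate 1 or 2, SCR DMSO replicate 1 or 2, or MAVS DMSO replicate 2 (adjusted p of 0.0511 to 0.162). ZNF430 also differed for STING (-0.90 ± 0.20; adjusted p = 0.00212).

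ZNF460 differed from SCR in every line, by 0.28 ± 0.07 in STING (adjusted p = 0.00329), 0.30 ± 0.07 in MAVS (0.00349) and 0.47 ± 0.07 in DKO (3.96e-06). It had 234 and 236 CPM in MPS1i against 258 and 256 CPM in DMSO in STING, 241 and 235 against 249 and 262 CPM in MAVS, and 207 and 223 against 202 and 209 CPM in DKO. Its level in SCR DMSO, 292 and 307 CPM, was above all other libraries. For DKO the other differences that held with any 1 library left out were positive for ZNF573 (0.92 ± 0.22), ZNF568 (0.73 ± 0.10; adjusted p = 4.33e-06), ZNF793 (0.57 ± 0.15), ZNF528 (0.43 ± 0.10), ZNF558 (0.38 ± 0.11), ZNF146 (0.31 ± 0.06) and ZNF805 (0.30 ± 0.07), among others, and negative for ZNF114 (-0.85 ± 0.16; adjusted p = 0.000228) and ZNF224. ZNF114 had 6.88 and 6.67 CPM in MPS1i against 8.34 and 8.49 CPM in DMSO in DKO, and 11.5 and 10.5 against 7.32 and 7.89 CPM in SCR. ZNF296 had 1.91 and 2.52 CPM in MPS1i in MAVS, against 2.24 and 1.88 CPM in DMSO (difference from SCR -1.27 ± 0.32, adjusted p = 0.0107), a difference that was not called without MAVS MPS1i replicate 1 (0.0728), SCR DMSO replicate 1 (0.0845) or MAVS DMSO replicate 1 (0.101).

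**Figure D5:**
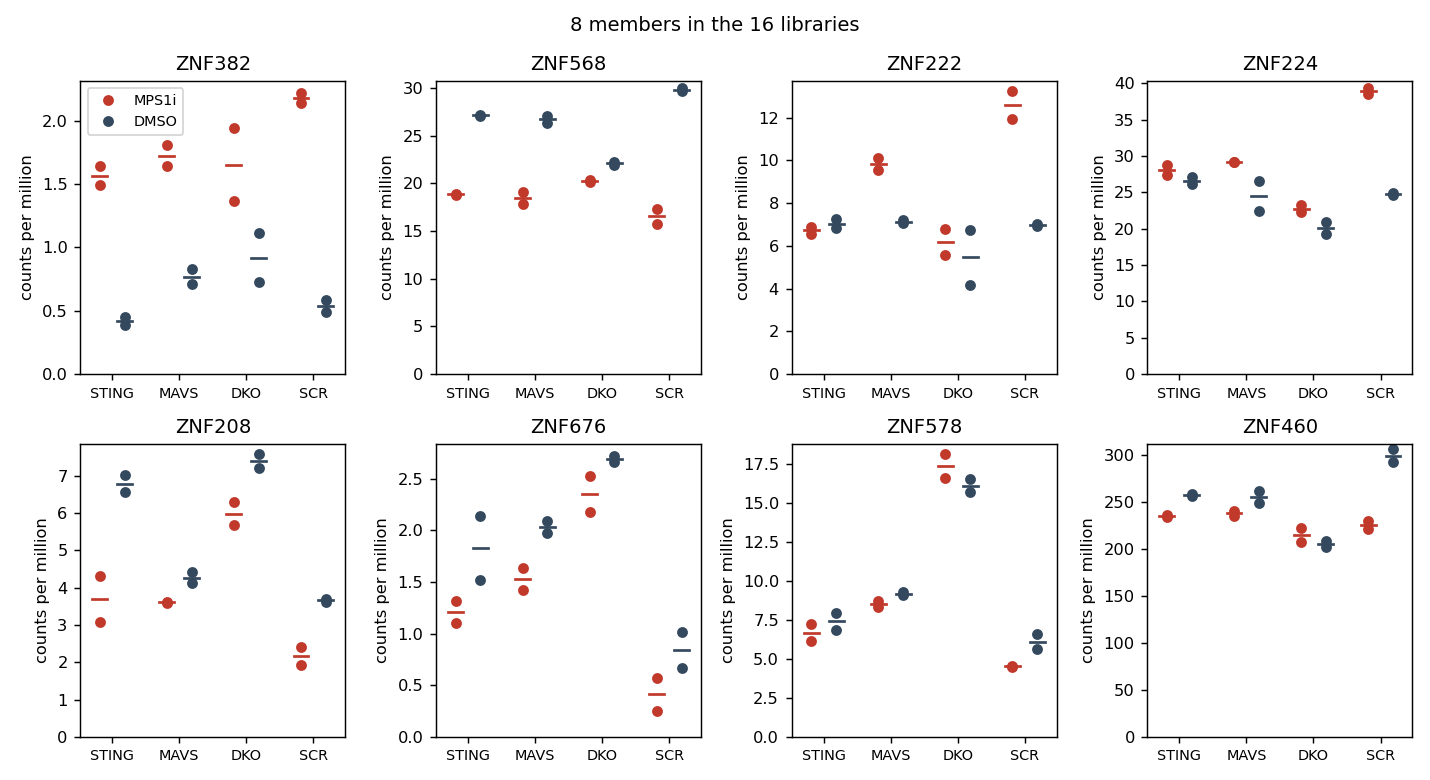
CPM of ZNF382, ZNF568, ZNF222, ZNF224, ZNF208, ZNF676, ZNF578 and ZNF460 in each of the 16 libraries, MPS1i left of DMSO in each genotype. ZNF222 and ZNF224 stand highest in SCR MPS1i, and ZNF578 highest in DKO under both treatments (15.7 to 18.1 CPM).

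Between lines in DMSO, 14 genes differed between STING and SCR (7 higher and 7 lower; 6.64%, against 10.2% of all genes, with 4.7% higher and 5.47% lower) and 13 between MAVS and SCR (9 higher and 4 lower; 6.16%, against 6.56%, with 3.98% higher and 2.57% lower). In DKO 30 were higher and 39 lower than in SCR (32.7%, against 31.1%). With 1 library left out the counts were 4 to 8 for STING whichever library it was, and 53 to 65 for DKO. For MAVS the count became 5 without SCR DMSO replicate 1 and 2 without MAVS DMSO replicate 1. In MPS1i-treated cells, 18 were higher and 48 lower in STING than in SCR (31.3%, against 33.1%), 18 and 9 in MAVS (12.8%, against 15.9%, with 7.46% higher and 8.47% lower), and 40 and 46 in DKO (40.8%, against 45.1%). For STING the count became 42 without SCR MPS1i replicate 2, 41 without STING MPS1i replicate 1 and 39 without STING MPS1i replicate 2. It was 14 to 16 for MAVS whichever library was left out, and 60 to 76 for DKO. All 6 comparisons use the SCR libraries, and a difference made by a guide cannot be told apart here from one between the cells each line grew from.

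ZNF676, a neighbour of ZNF208, had the largest differences from SCR in size in 5 of the 6 comparisons of lines, the other being MAVS in DMSO. In MPS1i it had 1.11 and 1.32 CPM in STING, 1.64 and 1.42 CPM in MAVS and 2.53 and 2.18 CPM in DKO, against 0.253 and 0.569 CPM in SCR (log2 fold changes 1.51 ± 0.33, 1.84 ± 0.31 and 2.47 ± 0.31; adjusted p = 0.00085, 0.000116 and 2.62e-07). All 6 libraries of the 3 lines lay above both SCR libraries. In DMSO the DKO libraries had 2.72 and 2.66 CPM, against 0.669 and 1.01 CPM in SCR (1.70 ± 0.27; adjusted p = 2.55e-05). ZNF208 had 7.57 and 7.22 CPM in DKO and 6.57 and 7.01 CPM in STING, against 3.61 and 3.70 CPM in SCR, all in DMSO (1.02 ± 0.15 and 0.89 ± 0.16; adjusted p = 8.3e-06 and 0.000331). In MAVS it had 4.11 and 4.41 CPM (0.22 ± 0.16; adjusted p = 0.507). ZNF90, in the same cluster, was higher in DKO (1.57 ± 0.23) and in MAVS (1.31 ± 0.24; adjusted p = 0.000941) in DMSO. ZNF486 (1.10 ± 0.19) and ZNF626 (0.86 ± 0.16) were higher in DKO.

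In that cluster, ZNF101 to ZNF254, 11 of 30 genes were higher and 1 was lower in DKO than in SCR in DMSO (median 0.28), where 15.8% of all genes were called higher and 15.3% lower. The higher calls numbered 8 to 10 and the median 0.20 to 0.32 in the fits with 1 library left out. ZNF91, which represses SVA and L1 elements and is the cluster's most abundant gene in CPM, had 57.8 and 63.4 CPM in DKO, against 49.2 and 49.7 CPM in SCR (0.30 ± 0.06; adjusted p = 0.000514). Its libraries did not overlap. In MPS1i the same cluster had 7 higher and 5 lower in DKO (median -0.12), where 22.6% of all genes were called higher and 22.4% lower. Its lower calls rested on SCR MPS1i replicate 2, and its median lay between -0.14 and -0.01 with 1 library left out. Several clusters went the other way in DMSO. ZNF628 to ZNF446 had 3 higher and 11 lower in DKO (median -0.09), with its calls fewest without SCR DMSO replicate 1. ZNF575 to ZNF296 had 1 higher and 6 lower of 24 (median -0.20). In ZNF565 to ZNF573 these were 3 and 7 of 23 (-0.17), and in cluster 2 they were 1 and 5 of 12 (-0.16). Cluster 8, ZNF302 to ZNF792, had 0 and 2 of 5 (-0.11). The medians of ZNF175 to ZNF331 and ZNF653 to ZNF791 were 0.01 and 0.03. No protein-coding gene of at least 1 CPM outside the zinc finger families lies wholly within the ZNF101 to ZNF254 or the ZNF565 to ZNF573 span.

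In MPS1i-treated cells the ZNF175 to ZNF331 cluster was lower in STING than in SCR: 3 genes were higher and 19 lower (median -0.20), where 15.8% of all genes were called higher and 17.3% lower. The lower calls numbered 12 to 14 and the median lay between -0.22 and -0.17 with 1 library left out. The count of 12 was that without STING MPS1i replicate 1. In DKO 8 of the 37 were higher and 14 lower, where 22.6% of all genes were called higher and 22.4% lower. The lower calls were fewest without DKO MPS1i replicate 1, and the median lay between -0.12 and -0.09 with 1 library left out. Among the higher was ZNF578, with 18.1 and 16.6 CPM in DKO, 7.21 and 6.13 CPM in STING and 8.67 and 8.30 CPM in MAVS, against 4.50 and 4.55 CPM in SCR (1.94 ± 0.11, 0.55 ± 0.13 and 0.90 ± 0.12; adjusted p = 2.4e-13, 0.00109 and 3.12e-06). No library of the 3 lines overlapped with SCR. In DMSO its difference in DKO was 1.41 ± 0.11 (adjusted p = 2.19e-10). Its neighbour ZNF528 had 36.4 and 33.4 CPM in DKO, against 19.2 and 18.97 CPM in SCR, in MPS1i (0.87 ± 0.07; adjusted p = 2.92e-10).

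The genes lower in DKO included some of the most abundant. ZNF460 and ZNF146 differed in DMSO by -0.54 ± 0.05 and -0.43 ± 0.04 (adjusted p = 1.41e-09 and 3.25e-08), ZNF146 having 215 and 224 CPM in DKO, against 294 and 299 CPM in SCR. ZNF480 was lower in DKO by -0.41 ± 0.06 and ZNF557 by -0.57 ± 0.11. In MPS1i, ZNF222 was lower in DKO and in STING than in SCR (-1.05 ± 0.15 and -0.91 ± 0.14; adjusted p = 1.45e-06 and 1.71e-05), and so was ZNF224 in DKO, STING and MAVS (-0.77 ± 0.08, -0.47 ± 0.07 and -0.42 ± 0.07). ZNF430 was lower in STING (-0.83 ± 0.14; adjusted p = 5.36e-05).

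Several genes have a described role that the names do not carry, and 20 such genes were listed for this purpose. Of these 20, 1 rose and 3 fell under MPS1i in STING, 5 and 1 in MAVS, 1 and 0 in DKO, and 11 and 4 in SCR, where 29.4%, 33.4%, 14.8% and 50% of all tested genes were called in either direction. Of those that silence transposable elements, ZNF91 rose in MAVS (0.28 ± 0.06; adjusted p = 0.00119) and SCR (0.16 ± 0.06; adjusted p = 0.0347), and neither call held in full: the MAVS call was lost without MAVS MPS1i replicate 1 (0.0582) or DMSO replicate 1 (0.0583), and the SCR call without any 1 of the 4 SCR libraries (0.122 to 0.183). ZNF93, which represses L1 elements, fell in STING (-0.68 ± 0.23; adjusted p = 0.0264), a call lost without any 1 of the 4 STING libraries (0.0654 to 0.109). ZNF649, which also binds L1, had 6.89 and 7.63 CPM in MPS1i, against 9.43 and 9.54 CPM in DMSO, in SCR (-0.38 ± 0.10; adjusted p = 0.00308), and in DKO it had 11.1 and 13.2 CPM in MPS1i against 10.6 and 10.9 CPM in DMSO. ZNF611, which binds SVA elements, had 39.0 and 39.0 CPM in MPS1i against 30.2 and 27.5 CPM in DMSO in SCR (0.43 ± 0.07; adjusted p = 7.18e-06). ZNF808, which silences MER11 elements in pancreas development, was called in none of the 13 comparisons, and its 16 libraries lay between 47.4 and 57.1 CPM. ZNF417, which together with ZNF587 represses HERV-K in neurons, was also called in none, and ZNF587 (61.1 and 64.3 CPM in MPS1i against 54.4 and 57.7 CPM in DMSO in SCR) shares words with it.

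Of those with a role in signalling or growth, ZNF350 (ZBRK1, a partner of BRCA1) had 31.3 and 31.0 CPM in MPS1i, against 22.5 and 22.4 CPM in DMSO, in SCR (0.47 ± 0.09; adjusted p = 6.53e-05). ZNF675 (TIZ, an inhibitor of TRAF6 signalling) had 9.99 and 11.1 CPM in MPS1i, against 6.93 and 7.98 CPM in DMSO, in SCR (0.51 ± 0.12; adjusted p = 0.000649), and its values in STING and DKO were -0.10 and -0.10 (adjusted p = 0.613 and 0.666). ZNF420 (Apak, a regulator of p53) fell to 16.1 and 16.9 CPM in SCR in MPS1i, against 21.1 and 21.6 CPM in DMSO (-0.37 ± 0.09; adjusted p = 0.000921). None of the 3 had overlapping groups in SCR. ZNF175 (OTK18) rose in SCR (0.36 ± 0.09; adjusted p = 0.00134), and ZNF558, which represses SPATA18 in human neural progenitors, fell (-0.29 ± 0.07; adjusted p = 0.00175). ZNF274, which recruits SETDB1 to the ends of zinc finger genes, stood at 31.2 and 32.3 CPM in MPS1i, against 27.2 and 26.2 CPM in DMSO, in SCR (0.25 ± 0.08; adjusted p = 0.0161), a call lost without any 1 of the 4 SCR libraries (0.0570 to 0.133). The imprinted gene ZNF331 fell in STING (-0.37 ± 0.09; adjusted p = 0.00305), where the call was lost without DMSO replicate 1 (0.196). ZNF331 and ZNF304 had effects of -0.03 and 0.14 in SCR (adjusted p = 0.764 and 0.139).

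The partners of these proteins were looked at in a list of 29 co-repressor and heterochromatin genes, all of them tested. Under MPS1i 3 rose and 5 fell in STING, 3 and 6 in MAVS, 1 and 9 in DKO, and 8 and 9 in SCR. These are 27.6%, 31%, 34.5% and 58.6% of the list, against 29.4%, 33.4%, 14.8% and 50% of all tested genes. Of protein-coding genes of at least 1 CPM, 35.9%, 41.9%, 19% and 59.9% were called. The genes of this list were not followed in the fits with a library left out. CBX5, which encodes HP1-alpha, had the largest change. It fell to 825 ± 15 CPM in STING in MPS1i, against 1069.6 ± 11.3 CPM in DMSO, and to 538 ± 9.22 CPM in SCR, against 1207 ± 38.4 CPM (SD, n = 2 each; log2 fold changes -0.37 ± 0.04 and -1.17 ± 0.04, SE). In MAVS and DKO it fell by 0.72 and 0.30 on the log2 scale, and all 3 lines differed from SCR (difference 0.79 ± 0.06 for STING, 0.44 ± 0.06 for MAVS and 0.87 ± 0.06 for DKO). MTA1, a subunit of the NuRD complex, fell in MAVS (-0.44 ± 0.07) and SCR (-0.62 ± 0.07), and had values of -0.13 in STING (adjusted p = 0.174) and -0.02 in DKO (adjusted p = 0.901). TRIM28 itself rose in STING (0.29 ± 0.07) and SCR (0.18 ± 0.06), and stood at 244 ± 8.18 CPM in DKO in MPS1i and at 244 ± 27.4 CPM in DMSO. SETDB1 had log2 fold changes of 0.02 in STING, -0.15 in MAVS, -0.14 in DKO and -0.13 in SCR, and the MAVS and SCR values were called (adjusted p = 0.0426 and 0.0468). MORC2, which acts with the HUSH complex, rose in all 4 genotypes (0.23, 0.38, 0.22 and 0.40 in STING, MAVS, DKO and SCR). DNMT1, the maintenance DNA methyltransferase, fell in DKO (-0.36 ± 0.05; adjusted p = 1.95e-05) and rose in SCR (0.15 ± 0.05; adjusted p = 0.0152), and the difference was -0.51 ± 0.07 (adjusted p = 4.96e-06).

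Members differ in base composition, and the treatment effects varied with it to different degrees. Across the 211 genes, Spearman's rho between the GC content of the transcript and the log2 fold change was 0.333 in STING, 0.085 in MAVS, 0.298 in DKO and 0.035 in SCR. The 31 genes of at least 50% GC had a median log2 fold change of 0.08 in STING, with 5 rises and 0 falls. The other 180 had a median of -0.09, with 10 rises and 24 falls. Of all tested genes, 15.5% were called higher and 13.9% lower in STING. The ZNF101 to ZNF254 cluster had the lowest median GC of the clusters with at least 5 genes, at 37.4%. Its falls in STING and DKO therefore stand beside a relation with GC over the whole family, whose part in them was not tested. Genes with a KRAB pattern (173) had medians of -0.09 in STING, 0.03 in MAVS, 0.02 in DKO and 0.01 in SCR, and those without it (38, with a median GC of 57.8% against 41.8%) had 0.02, 0.03, 0.03 and 0.04.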

How the data were processed

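Poly(A) RNA of 16 libraries was sequenced with a stranded kit, per the labels' protocols. The gene counts were deposited by the authors as whole numbers, and were made with Trim Galore, cutadapt, Trimmomatic, STAR and featureCounts on GRCh38 (hg38), per the submitters' processing notes. Versions, strand setting and treatment of multiply mapping reads are not given in the sources used here.

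Genes were taken by symbol, type and chromosome as listed with the counts. Genes with low counts were removed with filterByExpr (minimum count 10, minimum total 15), which left 17950. Library totals of 19893784 to 49769938 counts were scaled with TMM. A model of 8 groups over all 16 libraries was fitted with edgeR 4.0.16 in R 4.3.3, and 13 contrasts were tested with its quasi-likelihood test. P-values were adjusted by Benjamini-Hochberg over all tested genes, with a threshold of 0.05. The SE of a log2 fold change is its size divided by the square root of the F statistic. CPM values use the scaled totals, and SDs are over 2 libraries. The procedure was tested on simulated data.

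Genes were picked for naming by rule. The rule took the 5 largest called rises and falls of each treatment effect and the 3 largest of each line comparison. It also took the 3 smallest adjusted p of each difference of effects and those called alike in all 4 genotypes. The 5 highest per kb, the 3 lowest in CPM, the smallest adjusted p of each cluster in SCR, and 20 genes with a described role completed it. Not all genes so picked are described, and ZNF835, ZNF66, ZNF799, ZNF333, ZNF181 and ZNF546 are among those left out. Any gene named outside this rule was picked with its values known. The genes and the lists were chosen with earlier results of these data known. Exon lengths, GC content, fingers, KRAB pattern and shared 50-base words come from GENCODE 29 transcripts.

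Libraries of the same replicate number were checked for shared deviations over 28 pairs of groups. The correlations ran from -0.0845 to 0.138 (median 0.0203), so the numbers were not treated as pairs. Alternatives were DESeq2 1.42.0, RLE scaling, no filter on low counts, a fit of only the compared groups, a replicate block, and leaving out each library.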

Additional observations from a re-analysis of the deposited data

Results flagged for a closer look

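The treatment effect, MPS1i over DMSO on the log2 scale, differed by test (edgeR's quasi-likelihood test of the interaction, adjusted p under 0.05 over 17950 genes) between a knockout line and SCR for 47 values of named genes. Each value below is the effect in the line minus the effect in SCR. All of them share the same 4 SCR libraries.

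In STING the difference was positive for 7 named genes: ZNF573 (0.73), ZNF581 (0.67), ZNF473 (0.45), ZNF558 (0.36), ZNF568 (0.32), ZNF460 (0.28) and ZNF146 (0.21). It was negative for 9: ZNF20 (-1.49), ZNF222 (-0.91), ZNF430 (-0.90), ZNF675 (-0.61), ZNF224 (-0.58), ZNF737 (-0.52), ZNF175 (-0.38), ZNF274 (-0.35) and ZNF765 (-0.29). Those of ZNF222, ZNF430, ZNF224 and ZNF460 were still called with any 1 library left out.

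In MAVS it was positive for ZNF460 (0.30), which was still called with any 1 library left out, and negative for ZNF296 (-1.27), ZNF224 (-0.40) and ZNF611 (-0.32), which were not.

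In DKO it was positive for 17 named genes. Of these, ZNF573 (0.92), ZNF568 (0.73), ZNF793 (0.57), ZNF460 (0.47), ZNF528 (0.43), ZNF558 (0.38), ZNF146 (0.31) and ZNF805 (0.30) were still called with any 1 library left out. The others were ZNF77 (1.06), ZNF285 (0.87), ZNF599 (0.74), ZNF649 (0.54), ZNF578 (0.53), ZNF420 (0.43), ZNF428 (0.43), ZNF473 (0.33) and ZNF507 (0.25). It was negative for 10: ZNF382 (-1.20), ZNF114 (-0.85), ZNF222 (-0.72), ZNF675 (-0.61), ZNF738 (-0.60), ZNF224 (-0.48), ZNF737 (-0.44), ZNF350 (-0.41), ZNF611 (-0.31) and ZNF45 (-0.26). Of these, ZNF114 and ZNF224 were still called with any 1 library left out.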

How the results depend on the processing

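Group sizes of 2 limit every count. With DESeq2 the treatment calls numbered 25 in STING, 30 in MAVS, 12 in DKO and 68 in SCR, all 68 of them among the 105 of edgeR. DESeq2 also gave 7 calls for STING against SCR in DMSO, 16 for MAVS against SCR in MPS1i, and differences of effects for 11 genes in STING, 3 in MAVS and 25 in DKO. With only the compared groups in the fit, DKO had 10 treatment calls. With no filter on low counts the median over the family in SCR was -0.00204. Leaving out 1 library gave 16 to 28 treatment calls in STING, 26 to 32 in MAVS, 5 to 23 in DKO and 76 to 79 in SCR. The medians were then -0.0957 to -0.0746, -0.0103 to 0.0514, -0.000244 to 0.0447 and -0.0221 to 0.0152 in the same order. Against SCR, calls were then 4 to 8 (STING), 2 to 11 (MAVS) and 53 to 65 (DKO) in DMSO, and 39 to 48, 14 to 16 and 60 to 76 in MPS1i. Differences of effects were 9 to 19, 2 to 5 and 27 to 53. The replicate numbers did not pair the libraries, and the fit with a replicate block gave 40, 46, 22 and 106 treatment calls in STING, MAVS, DKO and SCR, 17, 13 and 71 line calls in DMSO, 67, 27 and 89 in MPS1i, and 24, 5 and 49 differences of effects. Of 4562 values of named genes under these alternatives, 3928 kept their side of the threshold, 618 were no longer called, 16 were newly called and 0 changed sign while called. A low-expressed gene such as ZNF382 or ZNF676 rests on few counts, and how multiply mapping reads were counted was not tested.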

Other observations

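Chromosome 19 also carries 16 expressed genes of related names (ZFP, ZSCAN, ZBTB, and ZNF with a letter after the digits), which the naming rule left out. Under MPS1i 2 rose and 4 fell in STING, 1 and 2 in MAVS, 2 and 1 in DKO, and 2 and 4 in SCR. These are 37.5%, 18.8%, 18.8% and 37.5% of the 16, against 29.4%, 33.4%, 14.8% and 50% of all tested genes. ZFP36, which encodes tristetraprolin, an RNA-binding CCCH protein that promotes decay of cytokine mRNAs and no C2H2 repressor, rose in all 4 genotypes. It had 124 ± 1.80 CPM in STING in MPS1i, against 81.9 ± 1.26 CPM in DMSO, and 165 ± 1.97 CPM in SCR in MPS1i, against 85.0 ± 2.38 CPM in DMSO (SD, n = 2 each). The log2 fold changes were 0.59 in STING, 0.62 in MAVS, 0.46 in DKO and 0.95 in SCR, and each line differed from SCR (-0.36 ± 0.07, -0.34 ± 0.07 and -0.50 ± 0.07; edgeR adjusted p = 0.000344, 0.00144 and 2.68e-06).

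ZSCAN18, a SCAN domain zinc finger gene, differed between the lines. In DMSO it had 8.23 ± 0.889 CPM in STING, 7.53 ± 1.03 CPM in MAVS and 9.87 ± 0.694 CPM in DKO, against 4.21 ± 0.605 CPM in SCR (log2 fold changes 0.95 ± 0.15, 0.84 ± 0.15 and 1.21 ± 0.15; edgeR adjusted p = 0.000159, 0.00122 and 4.46e-07). It fell under MPS1i by 0.50 in STING, 0.50 in MAVS and 0.48 in SCR on the log2 scale, and its value in DKO was 0.04 (adjusted p = 0.894). These genes were not refitted with a library left out.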
